A study of Homo sapiens with 12 samples.

Results

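Rec-1 and SP-49 are cultured lines labelled as mantle cell lymphoma, a cancer of mature B cells in which the cyclin D1 gene CCND1 is typically switched on by a chromosome translocation. The comparison set the Rec-1 mock arrays against the SP-49 mock arrays, across all genes, to show how these lines differed before any inhibitor was given. It used 2 arrays of each line, chosen by their titles, which is 4 of the 12 arrays of the series. Cells of both groups were kept for 24 hours in RPMI medium with 10% fetal bovine serum and 0.1% DMSO, the solvent of the inhibitor arm. The series as a whole crossed 3 lines with DMSO or 1 micromolar of compound E, an inhibitor of gamma-secretase, the protease that releases the active part of Notch receptors. The other line, Mino, grew in 15% serum. Its arrays and the compound E arrays entered the estimate of the spread between duplicates and the choice of probe set per gene, but not the differences themselves. Each group is 1 established line, so the differences describe Rec-1 and SP-49 and not a class of tumours.

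A mature B cell is recognised by its surface immunoglobulin with the CD79A and CD79B signalling chains, by CD20 (MS4A1) and by the transcription factor PAX5. It displays peptides on MHC class II molecules to T cells and on MHC class I molecules, and it can raise a shared antiviral gene set when interferon is sensed. Notch receptors, when cut by gamma-secretase, send their inner part to the nucleus, where it drives target genes such as the HES and HEY repressors and, in B-cell lymphoma, MYC.

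Values are the deposited log2 signals of probe sets, so 1 unit is a doubling, and levels of different genes are not on a common scale. Below, "Rec-1" and "SP-49" stand for the mock arrays of each line, and differences are Rec-1 minus SP-49, the leading ones with their standard error (SE). A gene was called when limma's moderated test, adjusted by Benjamini-Hochberg over 19775 genes, gave p under 0.05. A gene not called is not shown to be equal in the lines, as small differences can be missed. The labels do not say whether the duplicates came from separate cultures, so a p-value here reflects array-to-array spread alone, and that spread may be technical. Duplicates correlated at 0.9921 for Rec-1 and 0.9949 for SP-49 over all probe sets, and arrays of different lines at 0.9411 to 0.9426. As RNA was measured in bulk, fewer cells of a kind and less RNA per cell cannot be told apart.

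The defining B-cell markers were high in both lines. MS4A1 read 10.25 and 10.23 in the Rec-1 arrays and 11.10 and 11.09 in the SP-49 arrays, PAX5 8.86 and 8.87 in the Rec-1 arrays and 9.59 and 9.70 in the SP-49 arrays, and CCND1 10.12 and 10.13 in the Rec-1 arrays and 10.47 and 10.43 in the SP-49 arrays. CD5, a T-cell molecule that most mantle cell lymphomas also carry, lay near the low end in both lines, at 2.47 and 2.33 in Rec-1, against 2.73 and 2.73 in SP-49. Markers of other cells were low in both lines for 6 of 20 T-cell, 8 of 18 NK-cell, 18 of 24 myeloid, 8 of 22 stromal and endothelial, 5 of 17 epithelial and 1 of 11 red-cell genes. Of 20 T-cell markers 4 were higher in Rec-1 and none lower, and their summed linear signal was 267.8 and 312.2 in Rec-1, against 147.2 and 129.7 in SP-49. TRBC1, a T-cell receptor constant region, read 7.21 and 7.48 in Rec-1, against 5.72 and 5.31 in SP-49, and both its other probe sets were called higher. A linear sum is weighted to bright members such as TRBC1, so it does not describe the list as a whole. The median of the 20 T-cell markers was 2.45 and 2.59 in Rec-1, against 2.20 and 2.13 in SP-49. CD3D read 4.81 and 4.79 in Rec-1, against 2.12 and 2.33 in SP-49, while CD2 had means of 1.69 in Rec-1 and 1.74 in SP-49, and the calls of LCK and CD3G were lost under some alternative settings. None of 18 NK-cell markers was higher and 4 were lower, among them GZMB (summed signal 74.9 and 75.2 in Rec-1, against 110.7 and 127.4 in SP-49). None of 24 myeloid markers was higher and 2 were lower (summed signal 93.9 and 91.4 in Rec-1, against 110.9 and 114.9 in SP-49). The defining myeloid markers CD14 (means of 1.58 in Rec-1 and 1.64 in SP-49), LYZ (1.43 in Rec-1 and 1.25 in SP-49), CSF1R (1.75 in Rec-1 and 1.46 in SP-49) and MPO (1.44 in Rec-1 and 1.5 in SP-49) were at the low end. Of 22 stromal and endothelial markers 2 were higher and 2 lower, of 17 epithelial markers 1 and 2, and of 11 red-cell markers 1 and 1. The 3' minus 5' signal of the ACTB control was 2.0 and 1.83 in Rec-1 and 2.29 and 2.36 in SP-49, and that of GAPDH 0.41 and 0.37 in Rec-1 and 0.35 and 0.34 in SP-49. The part of these marker and RNA control differences in the results was not tested.

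Of the 19775 genes, 5714 (28.9%) were called, 2595 (13.1%) higher and 3119 (15.8%) lower in Rec-1. The median difference over all genes was 0.04 and the median SE 0.164. At 4-fold or more, 722 genes (3.65%) were called, of which 184 (0.93%) were higher and 538 (2.72%) lower in Rec-1. The duplicates of the lines did not overlap for 12570 genes (63.6%), so a gap between the arrays alone says little about a gene. Many genes named below were chosen because they were called and did not overlap. A gap stated for such genes describes their values and adds no support. Many probe sets sit at background, and 5537 genes were below the median probe set (1.99 log2) in both arrays of both lines. Among the other 14238 genes, 5648 (39.7%) were called. A gene is termed low in a line when both arrays of that line lay under that median, and a fold against a low group is given as "at least".

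Genes low in SP-49 but not in Rec-1 were of mixed function. Of the 183 such genes called, those with the highest Rec-1 signal were BBOX1, CRISP3, ALOX5, MMP1, KCNJ16, TUSC1, RUNDC3B, CPED1, KLRC3 and PCDH10. BBOX1, which catalyses the last step of carnitine synthesis, read 8.77 and 8.84 in Rec-1, against 1.46 and 1.95 in SP-49. CRISP3, a secreted cysteine-rich protein, read 8.61 and 8.53 in Rec-1, against 1.15 and 1.11 in SP-49. For ALOX5, the 5-lipoxygenase that starts leukotriene synthesis, the values were 8.25 and 8.23 in Rec-1, against 0.99 and 1.24 in SP-49. The gap between the lines was a condition for naming these genes. The folds were at least 113, 95.6 and 76.1 (adjusted p = 6.48e-10, 3.05e-11 and 3.05e-11). MMP1, an interstitial collagenase, read 7.95 and 7.76 in Rec-1, against 1.17 and 0.98 in SP-49, at least 58.2-fold higher. KCNJ16, an inward-rectifier potassium channel subunit, was at least 36.5-fold higher (7.25 and 7.11 in Rec-1, against 1.29 and 1.08 in SP-49). The remaining 5 genes ranged from at least 16.5-fold for PCDH10, a protocadherin, to at least 25.4-fold for TUSC1. KLRC3 belongs to a family of near-identical NK-receptor genes, so its probe set may also read its relatives.

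**Figure D1:**
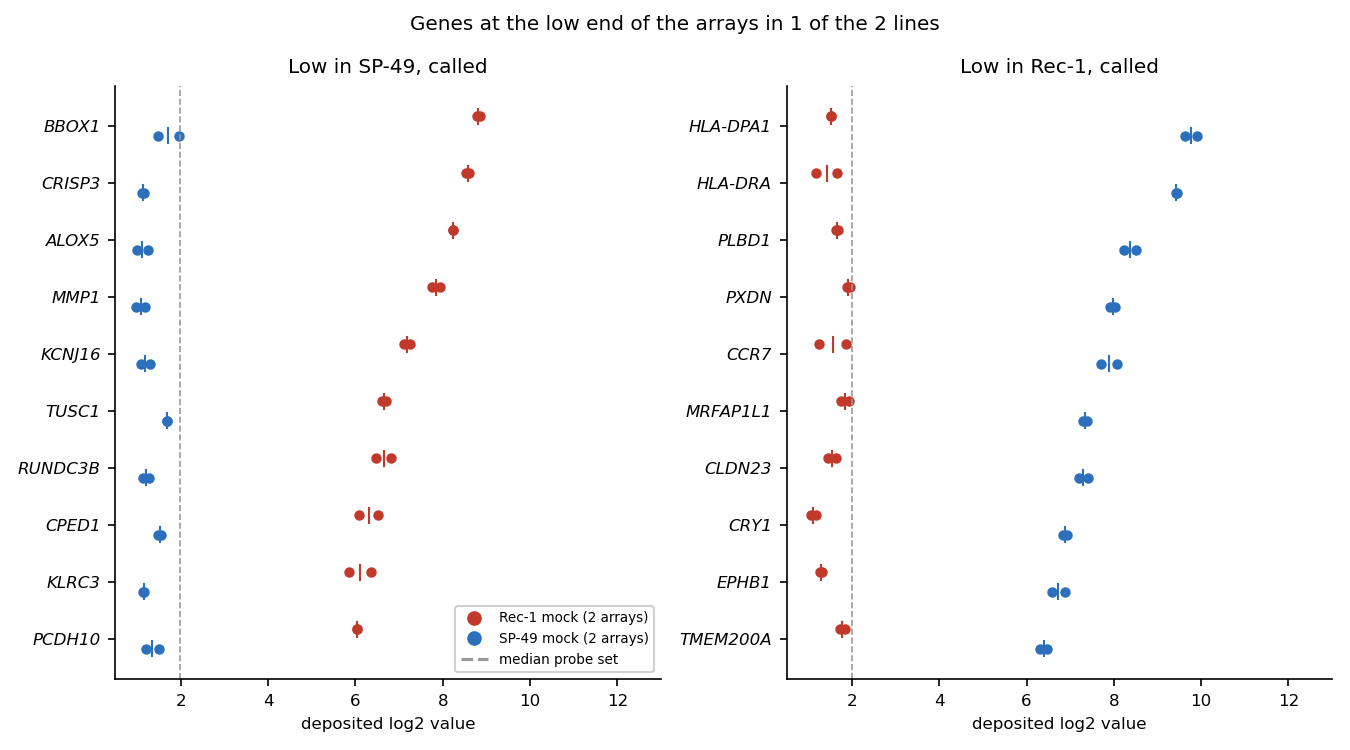
Deposited log2 values (horizontal axis) of the 10 named genes low in SP-49 (left) and the 10 low in Rec-1 (right). Dots are the 2 Rec-1 mock arrays (red, above) and the 2 SP-49 mock arrays (blue, below), ticks their means, and the dashed line the median probe set at 1.99; within each gene the lines lie far apart and the duplicates close together.

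Genes low in Rec-1 but not in SP-49 were led by antigen presentation genes. Of the 304 such genes called, those with the highest SP-49 signal were HLA-DPA1, HLA-DRA, PLBD1, PXDN, CCR7, MRFAP1L1, CLDN23, CRY1, EPHB1 and TMEM200A. CCR7, the chemokine receptor that guides lymphocytes into lymph nodes, read 1.25 and 1.87 in Rec-1, against 8.08 and 7.71 in SP-49, at least 59.9-fold lower in Rec-1 (adjusted p = 1.12e-09). A wide gap was set in advance here, as the genes were chosen for being low in Rec-1 and bright in SP-49. PXDN, a peroxidasin that crosslinks collagen IV, was at least 63.3-fold lower (1.88 and 1.95 in Rec-1, against 7.92 and 8.03 in SP-49). CRY1, a repressor of the circadian clock, was at least 29.7-fold lower (1.17 and 1.06 in Rec-1, against 6.93 and 6.83 in SP-49). EPHB1, an ephrin receptor kinase, was at least 26.7-fold lower, and its other probe sets were also called lower. PLBD1, a phospholipase-like protein, was at least 83.1-fold lower, and CLDN23, a claudin, at least 39.6-fold lower.

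Among genes low in neither line, immunoglobulin light chains and TCL1A gave the widest differences. IGKC, the constant region of the kappa light chain, read 10.41 and 10.56 in Rec-1, against 2.06 and 2.34 in SP-49, a difference of 8.28 (SE 0.16, adjusted p = 3.13e-11). The Rec-1 arrays were high and the SP-49 arrays near the low end, and 2 of the 7 other IGKC probe sets were called, both higher. IGLJ3, a lambda light-chain segment, went the other way, at 2.53 and 3.28 in Rec-1, against 10.58 and 10.47 in SP-49 (-7.62, SE 0.22), though none of its 4 other probe sets was called. The lambda constant-region probe set of IGLC1 was high in both lines, at 11.16 and 11.34 in Rec-1, against 12.61 and 12.59 in SP-49, and its call was lost when the probe sets of a gene were averaged. Immunoglobulin genes have near-identical copies and rearranged segments, so a probe set may read one chain and miss another. TCL1A, a cofactor of AKT kinases expressed in naive B cells, read 2.32 and 2.86 in Rec-1, against 11.13 and 11.21 in SP-49, a difference of -8.58 (SE 0.16).

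NFATC1, a calcium-responsive transcription factor downstream of the B-cell receptor, read 7.76 and 7.70 in Rec-1, against 1.89 and 2.33 in SP-49 (5.62, SE 0.16), and 3 of its 4 other probe sets were also called higher. Its relative NFATC2 was lower in Rec-1, at 4.92 and 4.48 in Rec-1, against 7.21 and 7.30 in SP-49 (-2.55, SE 0.17). These paralogs differed in opposite directions, with no overlap of arrays for either, though 2 dimmer probe sets of NFATC2 differed in sign. SPP1 (osteopontin) read 7.56 and 7.73 in Rec-1, against 2.15 and 1.96 in SP-49. ABCB1, the multidrug efflux pump, read 7.95 and 7.75 in Rec-1, against 2.84 and 2.51 in SP-49 and CPT1A, which admits long-chain fatty acids to mitochondria, 7.44 and 7.54 in Rec-1, against 2.99 and 2.53 in SP-49. SH3TC1 had a difference of 4.38, and FCRL1 and HEY1, also among the 8 largest, are described with their groups. On the lower side, MPEG1, a pore-forming protein of phagocytes and B cells, read 3.53 and 3.57 in Rec-1, against 10.70 and 10.60 in SP-49 and CD36, a scavenger receptor, 1.84 and 2.10 in Rec-1, against 9.10 and 8.99 in SP-49. RFTN1, a lipid-raft protein of B cells, had a difference of -6.26, MACROD2 of -6.02 and PIGR, the receptor that carries polymeric immunoglobulin across epithelia, of -5.90. In NFATC1, SPP1, CD36, RFTN1 and MACROD2, 1 array of the dimmer line lay under the median probe set, so these differences end near the low end of the arrays. The other probe sets of RFTN1, PIGR, SPP1 and SH3TC1 were not called.

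Most MHC class II genes measured were lower in Rec-1, with the alpha chains of HLA-DP and HLA-DR at the low end of its arrays. Of 20 measured members of the class II list 1 was higher and 12 were lower, with a median difference of -0.92 against 0.04 over all genes. HLA-DPA1, the alpha chain of HLA-DP, read 1.51 and 1.52 in Rec-1, against 9.91 and 9.63 in SP-49. HLA-DRA, the alpha chain shared by all HLA-DR molecules, read 1.65 and 1.19 in Rec-1, against 9.42 and 9.45 in SP-49. The SP-49 arrays were high and both Rec-1 arrays under the median probe set, giving folds of at least 219.5 and 174 (adjusted p = 1.86e-11 and 3.13e-11). The 3 probe sets of HLA-DPA1 and the 2 of HLA-DRA were all called lower. Among the beta chains, HLA-DPB1 read 2.45 and 1.56 in Rec-1, against 7.69 and 7.71 in SP-49, HLA-DRB1 3.81 and 4.62 in Rec-1, against 9.08 and 9.11 in SP-49, and HLA-DRB4, which only some haplotypes carry, 2.21 and 2.40 in Rec-1, against 7.08 and 7.08 in SP-49. The dimmer probe sets of HLA-DPB1 (1) and HLA-DRB4 (2) were not called.

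The peptide-loading genes followed with smaller differences. HLA-DMB, part of the editor that exchanges peptides on class II, had a difference of -3.98, its partner HLA-DMA of -1.34, and the HLA-DM inhibitors HLA-DOA and HLA-DOB of -2.09 and -1.36. The proteases CTSS and CTSH, which trim the invariant chain and antigens, differed by -0.80 and -0.96. CD74, the invariant chain itself, was high in both lines and missed the threshold, at 9.51 and 9.64 in Rec-1, against 10.19 and 10.06 in SP-49 (-0.55, SE 0.19, adjusted p = 0.0504). CIITA, the master activator of class II transcription, had low signals in both lines, at 2.37 and 2.61 in Rec-1, against 2.80 and 2.30 in SP-49, and none of its 3 probe sets was called. Of the factors that bind class II promoters, RFX5 and RFXAP were not called, and RFXANK, the 1 higher member, differed by 0.55, a call that some alternative settings lost. HLA-DQA1 was low in both lines. HLA genes differ in sequence between people, so probe sets may read the alleles of the lines unevenly, which was not tested.

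**Figure D2:**
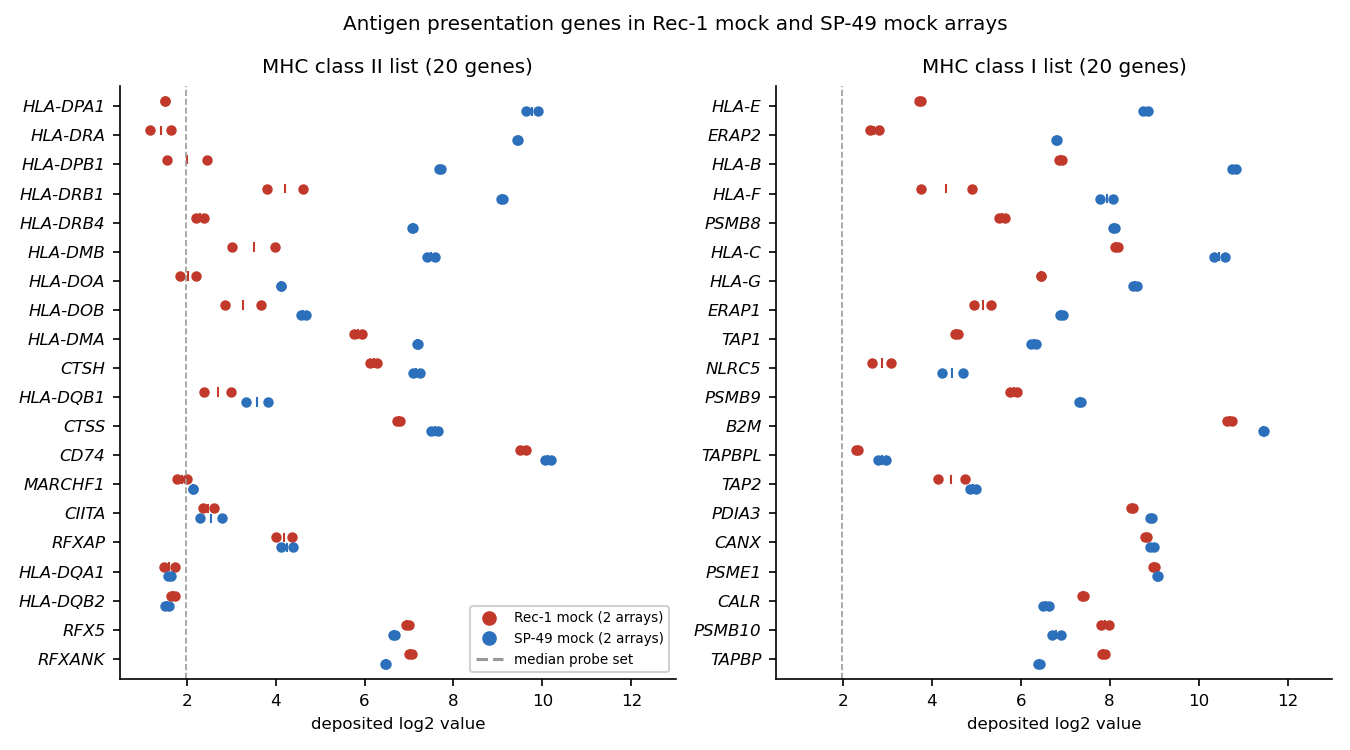
Deposited log2 values (horizontal axis) of the 20 measured genes of the MHC class II list (left) and the 20 of the MHC class I list (right), ordered by difference. Dots are the 2 Rec-1 mock arrays (red, above) and the 2 SP-49 mock arrays (blue, below), ticks their means; HLA-DPA1 and HLA-DRA lie under the median probe set (dashed, 1.99) in Rec-1 and above 9 in SP-49.

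Most MHC class I genes were also lower in Rec-1. Of 20 measured members 3 were higher and 14 lower, with a median of -1.54. HLA-E, the ligand of the NKG2A receptor, read 3.76 and 3.71 in Rec-1, against 8.86 and 8.74 in SP-49 (-5.07, SE 0.24). HLA-B read 6.87 and 6.94 in Rec-1, against 10.83 and 10.75 in SP-49 (-3.89, SE 0.13), and HLA-C 8.18 and 8.11 in Rec-1, against 10.58 and 10.34 in SP-49. In all 3 genes both Rec-1 arrays were below both SP-49 arrays, and every other probe set was called lower too. B2M, the light chain of every class I molecule, showed a smaller difference of -0.76 (SE 0.13). ERAP2, an aminopeptidase that trims peptides in the endoplasmic reticulum, read 2.60 and 2.81 in Rec-1, against 6.83 and 6.78 in SP-49. The immunoproteasome subunits PSMB8 and PSMB9 differed by -2.51 and -1.49, and the peptide transporter subunit TAP1 by -1.74. NLRC5, the class I activator related to CIITA, was lower by the same test, at 3.08 and 2.66 in Rec-1, against 4.70 and 4.22 in SP-49 (-1.59). The 3 higher members were TAPBP (tapasin, 1.46), the immunoproteasome subunit PSMB10 (1.10) and the chaperone CALR (0.83), whereas PSME1, CANX and TAP2 were not called.

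The interferon-response list had the largest share of lower members among the lists examined. Of 51 measured members 1 was higher and 40 lower, 20 of them past 4-fold, and the median difference was -1.74. MX1, a GTPase that blocks viral replication, read 4.94 and 4.99 in Rec-1, against 9.60 and 9.48 in SP-49 (-4.58, SE 0.12, adjusted p = 3.08e-10). ISG15, a ubiquitin-like modifier, read 4.40 and 4.95 in Rec-1, against 8.68 and 8.74 in SP-49 (-4.04, SE 0.19), and HERC5, the ligase that attaches it, 2.13 and 1.68 in Rec-1, against 6.58 and 7.11 in SP-49. OAS1, which makes the signal that activates RNase L, read 2.14 and 2.03 in Rec-1, against 6.02 and 5.91 in SP-49. Both Rec-1 arrays were below both SP-49 arrays for each of these. DDX60, a helicase, was at least 14.7-fold lower and IFIT1, which binds foreign RNA caps, at least 7.29-fold lower, as both were low in Rec-1. The ISG15 protease USP18 differed by -3.74, the kinase EIF2AK2 by -3.38 and the interferon-inducible nucleotide kinase CMPK2 by -3.79.

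Among the transcription factors of the pathway, IRF9 and IRF7 were lower. IRF9, which joins STAT proteins in the interferon-activated complex, differed by -1.88 and IRF7, which amplifies interferon production, by -1.85. IRF1 and IRF3 were not called, with means of 4.0 in Rec-1 and 3.74 in SP-49 for IRF1 and 5.46 in Rec-1 and 5.10 in SP-49 for IRF3. IRF5, the 1 higher member, differed by 1.48, a call that some alternative settings lost. The receptor chains IFNAR1 and IFNAR2 were not called (-0.47 and 0.11), and JAK2, a kinase of several cytokine receptors, was lower (-2.15). Of 18 interferon genes measured, 17 were low in both lines and 1 was called, with means of 1.04 to 2.17 in Rec-1 and 1.04 to 1.87 in SP-49. CXCL10, a chemokine that interferons induce, was not called, at 6.35 and 6.46 in Rec-1, against 6.59 and 6.59 in SP-49.

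The promoters of these genes were read for the core of the interferon-stimulated response element, the site of the STAT and IRF9 complex. The 250 bases before the start of 4 genes are shown because each holds more than 1 copy and each gene was lower in Rec-1. Sequences are RefSeq's on the GRCh38.p14 build, given 5′ to 3′ in the direction of transcription, and capitals mark matches on either strand to the motif searched, which is GAAA, any 2 bases, GAAA, some of which overlap. They lie at chr4:88456869-88457118 (plus strand) for HERC5, chr4:168318753-168319002 (minus strand) for DDX60, chr1:1013247-1013496 (plus strand) for ISG15 and chr10:89392373-89392622 (plus strand) for IFIT1.
HERC5: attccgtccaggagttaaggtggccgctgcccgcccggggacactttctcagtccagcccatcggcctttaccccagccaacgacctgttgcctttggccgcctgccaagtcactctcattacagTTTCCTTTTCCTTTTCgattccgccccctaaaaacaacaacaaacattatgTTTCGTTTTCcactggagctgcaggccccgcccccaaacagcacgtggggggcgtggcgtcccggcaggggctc
DDX60: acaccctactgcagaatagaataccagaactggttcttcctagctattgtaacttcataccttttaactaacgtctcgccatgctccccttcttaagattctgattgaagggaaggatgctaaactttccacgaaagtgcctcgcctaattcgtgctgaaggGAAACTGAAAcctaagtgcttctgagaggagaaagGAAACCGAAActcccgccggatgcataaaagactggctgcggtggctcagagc
ISG15: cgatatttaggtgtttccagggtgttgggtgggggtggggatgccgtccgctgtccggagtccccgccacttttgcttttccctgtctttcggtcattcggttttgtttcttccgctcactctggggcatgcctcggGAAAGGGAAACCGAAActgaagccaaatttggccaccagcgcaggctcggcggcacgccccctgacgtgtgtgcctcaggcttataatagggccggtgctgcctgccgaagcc
IFIT1: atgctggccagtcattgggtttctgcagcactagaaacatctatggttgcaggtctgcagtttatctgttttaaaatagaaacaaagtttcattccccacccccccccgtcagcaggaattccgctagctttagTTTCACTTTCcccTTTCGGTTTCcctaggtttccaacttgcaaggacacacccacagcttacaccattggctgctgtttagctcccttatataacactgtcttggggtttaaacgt
Matches begin 125, 119 and 74 bases before the start of HERC5, 88 and 53 before DDX60, 113 and 107 before ISG15, and 116 and 103 before IFIT1. The motif was found in 22 of 40 interferon-list promoters present in the table (55.0%), against 381 of 15382 promoters of all genes (2.48%). In the list, 19 of the 22 genes with it and 13 of the 18 without it were lower in Rec-1. Over all genes, 23.4% of those with the motif and 16.6% of those without it were lower in Rec-1, and 10.8% and 13.6% were higher. A match describes letters in a window and is not a measured binding site.

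Class II promoters are known for a CCAAT sequence, the Y box, bound by NF-Y beside the RFX complex. CCAAT occurred on either strand in 12 of 16 class II promoters in the table (75.0%), against 34.1% of all 15382, and none of the 16 held the interferon motif. The promoters of HLA-DPB1 (chr6:33075740-33075989, plus strand) and HLA-DRB1 (chr6:32589849-32590098, minus strand) are shown with CCAAT or its reverse complement in capitals, as the beta chains of the molecules that were lowest in Rec-1.
HLA-DPB1: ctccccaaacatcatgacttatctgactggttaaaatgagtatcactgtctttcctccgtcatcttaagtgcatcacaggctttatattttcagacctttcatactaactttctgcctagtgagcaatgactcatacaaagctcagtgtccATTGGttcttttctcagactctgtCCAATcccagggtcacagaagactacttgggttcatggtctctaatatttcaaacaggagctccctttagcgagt
HLA-DRB1: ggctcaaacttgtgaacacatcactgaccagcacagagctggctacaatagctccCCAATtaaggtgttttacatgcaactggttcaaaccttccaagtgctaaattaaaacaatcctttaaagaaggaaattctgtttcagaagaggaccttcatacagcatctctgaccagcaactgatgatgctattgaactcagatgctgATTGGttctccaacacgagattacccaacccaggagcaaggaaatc
The copies begin 99 and 75 bases before the start in HLA-DPB1 and 195 and 46 in HLA-DRB1. Over all genes, 16.8% of those with CCAAT and 16.8% of those without it were lower in Rec-1.

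Notch receptors differed mainly at NOTCH4. NOTCH4 read 3.77 and 4.23 in Rec-1, against 8.26 and 8.19 in SP-49, a difference of -4.23 (SE 0.16, adjusted p = 5.02e-09), and its other probe set was also called lower. Both Rec-1 arrays were far below both SP-49 arrays. NOTCH1 read 5.46 and 5.51 in Rec-1, against 6.22 and 6.13 in SP-49 on the chosen probe set (-0.69, adjusted p = 6.67e-04). Its dimmer probe set went the other way, at 2.99 and 3.08 in Rec-1 and 1.92 and 1.99 in SP-49, and was called higher, so the direction for NOTCH1 was not settled. NOTCH2, at 8.15 and 7.97 in Rec-1, against 8.21 and 8.25 in SP-49, was not called, though a dimmer probe set of it was called higher in Rec-1. NOTCH3 (0.52) and the ligand JAG1 (1.08) were called higher, and both calls were lost under some alternative settings. DLL1, DLL3, DLL4 and JAG2 were not called. Over the 11 receptors and ligands 2 were higher and 2 lower, and of 25 regulators of the pathway 2 were higher and 8 lower. The receptor proteases ADAM10 and ADAM17, which make the cut that precedes gamma-secretase, were lower (-1.59 and -0.60), and the fringe enzyme MFNG was higher (0.77).

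Notch target genes were more often higher in Rec-1. Of 23 measured members of that list 10 were higher and 2 lower, with a median of 0.27. The list was drawn up with responses of these lines to the inhibitor known, so it is not independent evidence of direction. HEY1, a repressor induced by Notch, read 7.88 and 7.77 in Rec-1, against 3.52 and 3.54 in SP-49 (4.30, SE 0.20, adjusted p = 3.14e-08). HES4 read 5.11 and 5.14 in Rec-1, against 3.25 and 2.80 in SP-49, and DTX1, the Deltex ubiquitin ligase, 8.93 and 8.82 in Rec-1, against 7.07 and 7.14 in SP-49. For these targets the Rec-1 arrays were above the SP-49 arrays without overlap, which for HEY1 was a condition of its place among the 8 largest differences. MYC read 8.32 and 8.38 in Rec-1, against 7.33 and 7.31 in SP-49 (1.03, SE 0.18), a 2.04-fold difference. CD300A, an inhibitory receptor with ITIM motifs, read 8.62 and 8.64 in Rec-1, against 5.0 and 5.07 in SP-49. HES1 and NRARP, a direct target that damps the signal, were not called, at 5.86 and 5.67 in Rec-1, against 6.11 and 5.77 in SP-49 for HES1 and 5.43 and 5.44 in Rec-1, against 5.81 and 5.81 in SP-49 for NRARP. CDK5R1, an activator of CDK5, and the Fc-receptor-like molecule FCRL4 were lower (-2.0 and -0.86), although the other probe set of CDK5R1 differed in sign.

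**Figure D3:**
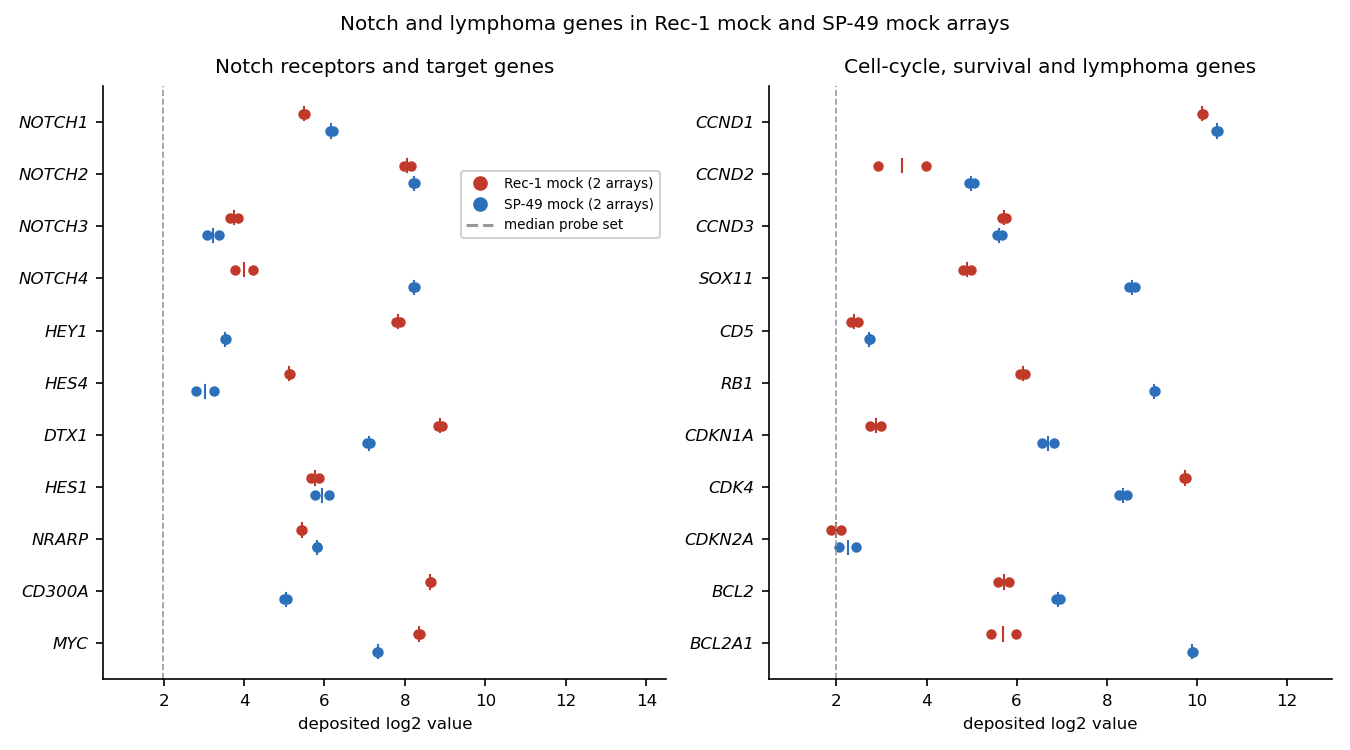
Deposited log2 values (horizontal axis) of Notch receptors and targets (left) and of cell-cycle, survival and lymphoma genes (right). Dots are the 2 Rec-1 mock arrays (red, above) and the 2 SP-49 mock arrays (blue, below), ticks their means, and the dashed line the median probe set at 1.99; HEY1 is higher and NOTCH4, SOX11, RB1 and BCL2A1 lower in Rec-1, while CCND1 and HES1 lie close in both.

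Genes that mark mantle cell lymphoma were mostly lower in Rec-1. Of 24 measured members 2 were higher and 14 lower, with a median of -0.66. SOX11, the transcription factor used to diagnose the disease, read 4.99 and 4.81 in Rec-1, against 8.50 and 8.62 in SP-49 (-3.66, SE 0.13), and its 3 probe sets were all called lower. Both Rec-1 arrays were above the median probe set, so SOX11 was lower but not at the low end. The proliferation gene PCLAF, the actin-binding DBN1, the growth factor relative HDGFL3 and LEF1, a WNT effector, differed by -1.15, -2.13, -2.37 and -2.30. CCND1 missed the threshold (-0.33, SE 0.11, adjusted p = 0.0508), and its other probe set differed in sign. CCND3 missed it too (0.10). CCND2 was lower, at 2.91 and 3.98 in Rec-1, against 4.93 and 5.04 in SP-49, with the Rec-1 duplicates 1 log2 unit apart. Of its 3 other probe sets 1 was also called lower, while the rest differed in sign and were not called. The higher members were TLR2 (1.5) and ATM (0.56), with the call of ATM lost under some alternative settings.

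Regulators of the G1 phase differed in both directions. Of 28 members 7 were higher and 7 lower. RB1, the retinoblastoma protein that holds E2F factors, read 6.18 and 6.08 in Rec-1, against 9.05 and 9.07 in SP-49 (-2.93, SE 0.12), a 7.61-fold difference, and its other probe set was also called lower (-2.21). Its relative RBL2 (p130) read 4.56 and 4.42 in Rec-1, against 6.87 and 6.83 in SP-49 (-2.35). CDKN1A, the p21 inhibitor induced by p53, read 3.0 and 2.74 in Rec-1, against 6.83 and 6.56 in SP-49 (-3.83, SE 0.20), and CDKN1B (p27) differed by -0.64. The arrays of the lines did not overlap for any of these. CDK4, the cyclin D kinase, read 9.75 and 9.71 in Rec-1, against 8.44 and 8.28 in SP-49 (1.37), and the phosphatase CDC25A and the factors E2F4 and E2F5 were higher by 0.89, 1.04 and 1.07. CDKN2A, which encodes p16 and p14ARF, was near the low end in both lines (1.88 and 2.09 in Rec-1, against 2.06 and 2.44 in SP-49) and was not called.

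Genes of the p53 pathway were more often lower than higher, with 4 of 29 higher and 14 lower and a median of -0.52. TNFRSF10B, the TRAIL death receptor DR5, read 3.33 and 2.63 in Rec-1, against 6.78 and 6.68 in SP-49 (-3.75, SE 0.22). ZMAT3, an RNA-binding target of p53, read 4.66 and 4.57 in Rec-1, against 7.26 and 7.53 in SP-49 and its 4 other probe sets were called lower too. The DNA-repair factor DDB2, the metabolic regulator TIGAR and the stress gene GADD45B differed by -1.57, -1.84 and -3.42, and the apoptosis effectors BAX and PMAIP1 by -0.92 and -0.94. MDM2, the ligase that degrades p53, was lower by a smaller amount (-0.78), and CCNG1 was not called. All 4 higher calls of this list (GADD45A, SESN1, TP53INP1 and ATM) were lost under some alternative settings.

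NF-kB genes and regulators of cell survival were more often lower than higher in Rec-1. Of 34 NF-kB genes 3 were higher and 19 lower (median -0.68), and of 31 BCL2-family and cell-death genes 4 were higher and 16 lower (median -0.70). BCL2A1, a survival protein induced by NF-kB, read 5.43 and 5.98 in Rec-1, against 9.91 and 9.89 in SP-49 (-4.19, SE 0.24). NFKBIZ, a nuclear co-regulator, read 5.15 and 4.85 in Rec-1, against 8.71 and 8.83 in SP-49 (-3.78, SE 0.13). In both genes the Rec-1 arrays were below the SP-49 arrays. The feedback inhibitors NFKBIA and TNFAIP3 differed by -1.42 (its other probe set in the opposite sign, not called) and -1.30, the subunit REL by -1.64, and the targets TRAF1, IER3 and TNF by -1.94, -2.90 and -2.48. The subunits NFKB1, NFKB2, RELA and RELB were not called, with differences between -0.12 and 0.24. Of the 3 higher members, LTB, lymphotoxin beta, had a difference of 3.10 (7.26 and 6.99 in Rec-1, against 4.08 and 3.97 in SP-49), though its other probe set was not called. The other two, TRAF3 (0.49) and TNIP2 (0.48), lost their calls under some alternative settings.

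Among the apoptosis genes, BCL2 read 5.83 and 5.59 in Rec-1, against 6.87 and 6.97 in SP-49 (-1.21). Of its 3 other probe sets 1 was also called lower, while the rest differed in sign (0.44 and 0.05) and were not called. CFLAR, which blocks caspase 8, had a difference of -2.20, and APAF1, the scaffold that activates caspase 9, of -1.57. The pro-apoptotic BID and BIK were lower (-1.53 and -1.88), whereas BCL2L11 (BIM) and BNIP3 were higher (1.06 and 1.44). The calls of MCL1 and BCL2L1 did not hold under every alternative. In the TNF family, 2 of 31 were higher and 15 lower. CD27, a receptor of memory B cells, read 2.74 and 3.54 in Rec-1, against 7.45 and 7.51 in SP-49 and TNFRSF17 (BCMA), a receptor of plasma cells, 2.37 and 2.39 in Rec-1, against 6.53 and 6.75 in SP-49. TNFRSF21 read 2.29 and 2.23 in Rec-1, against 6.33 and 6.37 in SP-49, and the ligand TNFSF9 differed by -2.69.

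B-cell identity factors differed in both directions, with 3 of 28 higher and 13 lower. Higher in Rec-1 were RUNX3 (7.56 and 7.46 in Rec-1, against 5.76 and 5.80 in SP-49), the coactivator POU2AF1 (1.45) and its partner POU2F2 (1.17). BCL6, the repressor that runs the germinal centre, read 3.49 and 3.52 in Rec-1, against 5.90 and 6.36 in SP-49 (-2.63), BCL11A 7.46 and 7.33 in Rec-1, against 9.17 and 9.38 in SP-49 (-1.88) and FOXP1 8.08 and 8.08 in Rec-1, against 9.62 and 9.69 in SP-49 (-1.58). IKZF3 (Aiolos), XBP1 and IRF8 differed by -1.49, -1.39 and -1.16, and PAX5 by -0.78. EBF1, IKZF1, SPIB and TCF3, further factors that set B-cell fate, were not called, with differences between -0.19 and 0.20. Of 22 germinal-centre genes 4 were higher and 6 lower, with VPREB3 (3.55) and the ectoenzyme CD38 (2.71) among the higher.

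On the B-cell surface, 11 of 48 molecules were higher and 19 lower. CD1D, which presents lipids to NKT cells, read 7.55 and 7.41 in Rec-1, against 3.49 and 3.44 in SP-49 (4.02, SE 0.16). FCRL1, an activating Fc-receptor-like molecule, read 6.88 and 6.89 in Rec-1, against 2.56 and 2.58 in SP-49 (4.32). Its family differed member by member, with FCRL3 higher (1.19), FCRL4 and FCRL5 lower (-0.86 and -1.58), and FCRL2 not called. The T-cell costimulators CD80 and CD86 were lower, CD80 at least 13.2-fold and CD86 with a difference of -2.33. CD44, the hyaluronan receptor, read 6.93 and 6.72 in Rec-1, against 9.73 and 9.70 in SP-49. CD72, a lectin that restrains the B-cell receptor, had a difference of -2.21, and MS4A1 of -0.85. CD180, a Toll-like receptor relative, and the tetraspanin CD81 were higher (1.79 and 1.20), and CD9, another tetraspanin, was at least 3.67-fold higher.

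Signalling below the B-cell receptor was split. Of 34 members 8 were higher and 13 lower. The receptor chains CD79A and CD79B were higher in Rec-1, at 8.98 and 9.16 in Rec-1, against 7.13 and 7.17 in SP-49 for CD79A (1.92) and 8.81 and 8.79 in Rec-1, against 8.08 and 7.98 in SP-49 for CD79B (0.77). The adaptor DOK3 was higher as well (2.0). Lower members included LAT2, a membrane adaptor (4.34 and 3.85 in Rec-1, against 7.37 and 7.23 in SP-49), PLCG2, the phospholipase that releases calcium (7.23 and 7.04 in Rec-1, against 9.24 and 9.10 in SP-49), BLNK (-0.99) and the kinases SYK and BLK (-0.78 and -1.0). RASGRP3, which activates RAS, was low in Rec-1. BTK, the target of ibrutinib, was not called, at 7.50 and 7.39 in Rec-1, against 7.23 and 7.14 in SP-49.

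Immunoglobulin and plasma-cell genes were called evenly, with 8 of 25 higher and 8 lower. IGHM, the mu heavy chain, read 11.13 and 11.12 in Rec-1, against 8.54 and 8.58 in SP-49 (2.56, SE 0.12), while 1 of its 4 other probe sets was called lower. JCHAIN, which links IgM pentamers, read 4.81 and 4.69 in Rec-1, against 2.11 and 1.61 in SP-49, and MZB1, an IgM chaperone, differed by 1.22. The plasma-cell surface genes SDC1 (CD138), TNFRSF17 and SLAMF7 were lower, SDC1 with a difference of -1.98. PRDM1, the master regulator of plasma cells, was not called (3.07 in Rec-1 and 3.72 in SP-49).

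**Figure D4:**
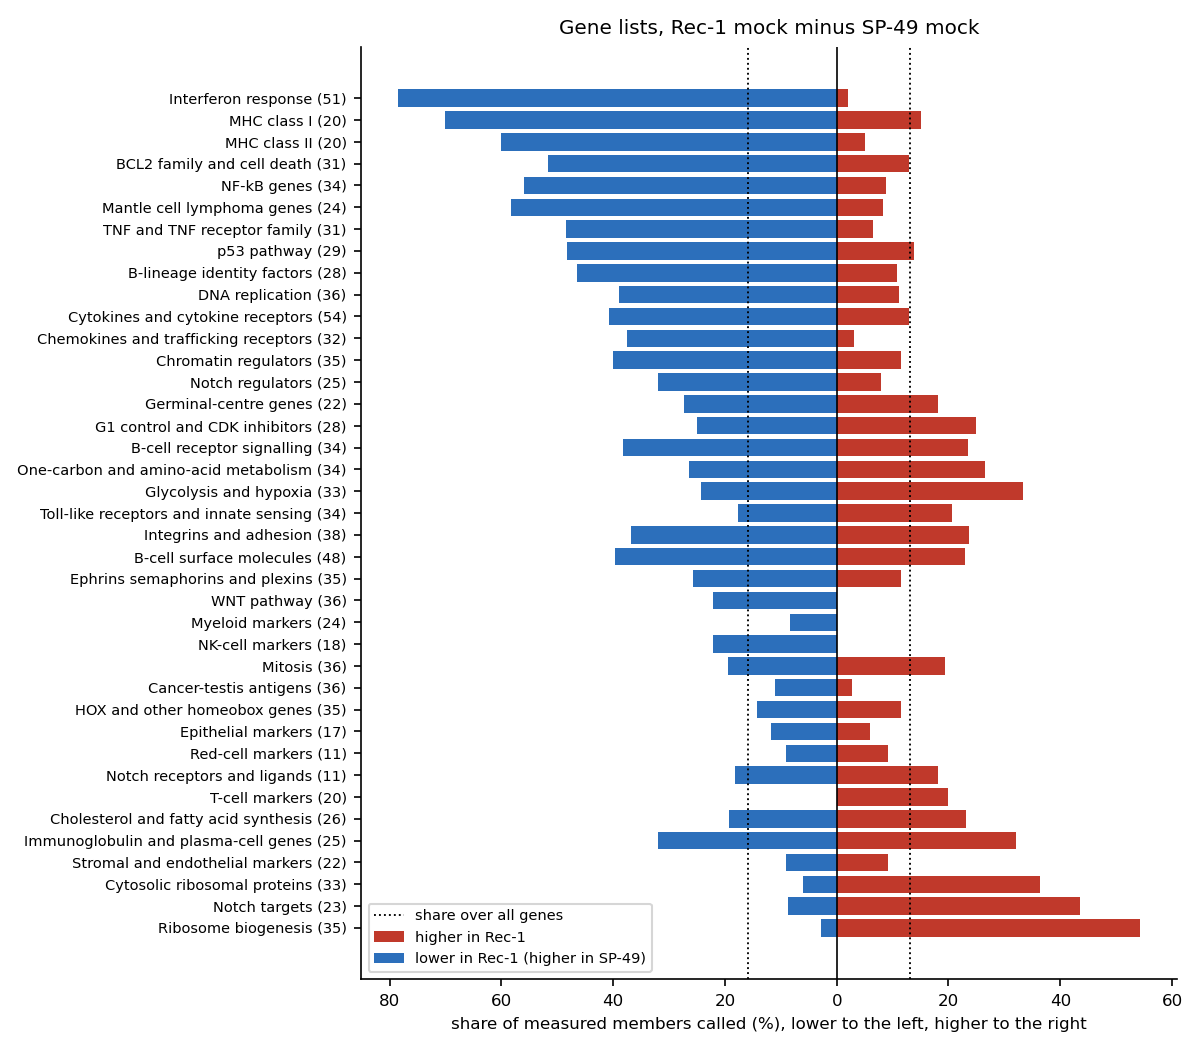
Share of measured members called higher in Rec-1 (red, right) or lower (blue, left), in percent, for each gene list, ordered by median difference, with the number measured in brackets. Dotted lines mark the shares over all genes, 13.1% higher and 15.8% lower; interferon and MHC lists extend furthest to the left and ribosome biogenesis furthest to the right.

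Chemokine and trafficking genes were mostly lower in Rec-1 where they were called, with 1 of 32 higher and 12 lower. CCL22, a chemokine that draws regulatory T cells, read 3.43 and 3.02 in Rec-1, against 8.92 and 8.96 in SP-49 (-5.71, SE 0.17). CXCR4, the receptor that keeps B cells in the marrow, read 6.63 and 6.52 in Rec-1, against 9.86 and 9.89 in SP-49 (-3.30), and both of its other probe sets were called lower. The follicle-positioning receptor GPR183 read 4.76 and 4.66 in Rec-1, against 7.18 and 7.27 in SP-49, and the receptor GPR18, the chemokine CCL4 and the egress receptor S1PR1 differed by -1.94, -1.98 and -0.77. CXCR5, which guides B cells to follicles, was not called (0.41). With CCR7 above, receptors for lymph node and marrow homing were among the lower members.

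Adhesion and cytokine genes differed in both directions. Of 38 adhesion genes 9 were higher and 14 lower, with a median of -0.04. LGALS1 (galectin 1) read 2.92 and 3.11 in Rec-1, against 7.0 and 6.93 in SP-49, VIM (vimentin) 7.08 and 7.08 in Rec-1, against 9.91 and 9.83 in SP-49, and CD58, the ligand of CD2, 4.35 and 4.30 in Rec-1, against 7.76 and 7.65 in SP-49. Both Rec-1 arrays were below both SP-49 arrays for all 3. ITGAL and ITGB2, which together form the LFA-1 integrin, were low or near the low end in Rec-1 (2.31 and 1.10 in Rec-1, against 5.02 and 5.17 in SP-49 for ITGAL and 1.08 and 1.16 in Rec-1, against 4.13 and 4.20 in SP-49 for ITGB2). JAM3 and ALCAM were higher (1.92 and 1.21). Of 54 cytokine genes 7 were higher and 22 lower. The receptors IL6R, IL17RB and IL21R differed by -4.28, -4.20 and -4.14, and IL4R, IL10RA and IL10RB by -2.24, -1.57 and -2.37. IL7, the lymphocyte growth factor, and TGFB1 were higher (2.14 and 1.95).

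Ribosome genes that were called were mostly higher in Rec-1. Of 35 ribosome biogenesis genes 19 were higher and 1 lower (median 0.54), and of 33 ribosomal protein genes 12 were higher and 2 lower (median 0.24). TAF1D, a factor of RNA polymerase I, read 6.70 and 6.68 in Rec-1, against 4.65 and 4.48 in SP-49 (2.12, SE 0.17). The assembly factors TSR1, NOP16 and RRP9 differed by 1.28, 1.25 and 1.26, and the polymerase subunits POLR1C and POLR1E by 1.11 and 0.89. NPM1 and NCL, abundant nucleolar proteins, were not called (0.09 and 0.33), though the 2 dimmer probe sets of NPM1 were called higher. Among ribosomal proteins RPL31 and RPL11 differed by 1.11 and 0.90. RPS27L, a p53-responsive relative of RPS27, was lower (-1.55). Over all genes the median difference lay between 0.01 and 0.05 under the alternatives tried, scaling included. That median is not a measure of the ribosome lists, whose counts of calls varied between the alternatives.

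Of 36 genes of DNA replication 4 were higher, 14 lower and 18 not called (median -0.34). RRM2, a subunit of ribonucleotide reductase, read 9.35 and 9.33 in Rec-1, against 10.70 and 10.83 in SP-49, and the licensing factor CDT1 differed by -1.37, although its other probe set differed in sign. MCM10, MCM5 and MCM6, which load or form the replicative helicase, differed by -0.95, -0.95 and -0.80. PCNA and TYMS were not called on the probe sets used (0.01 and 0.04). Of 36 mitotic genes 38.9% were called, against 39.7% of all genes not low in both lines. The calls were even, 7 higher and 7 lower, with CDC25B (2.09) and PLK1 (1.46) higher and TOP2A (-1.52) lower.

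Genes called lower were unevenly spread over the chromosomes. Leaving out genes low in both lines, 115 of 235 genes on chromosome 13 were lower (48.9%) and 18 higher (7.66%), with a median difference of -0.54. Chromosomes 15 and 2 followed, with 36.9% and 36.2% of genes lower, and 6.42% and 10.4% higher. Over all 14191 genes placed on chromosomes 1 to 22 or X and not low in both lines, 17.8% were higher and 21.9% lower. Higher genes outnumbered lower ones on chromosomes 1, 4, 6, 8, 11, 12, 19 and 20, and the highest shares were on chromosomes 8 (29.7% higher, 20.4% lower) and 11 (24.4% higher, 13.6% lower).

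**Figure D5:**
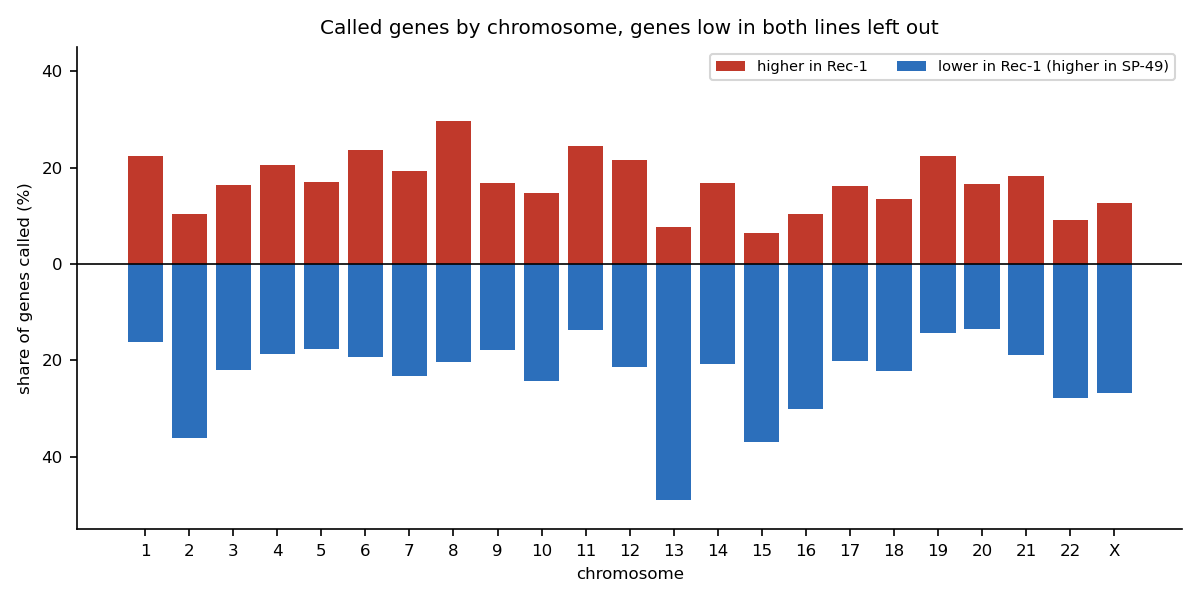
Share of genes called higher (red, upward) or lower (blue, downward) in Rec-1 mock than in SP-49 mock, in percent, on chromosomes 1 to 22 and X, with genes low in both lines left out. Chromosome 13 has 48.9% of its genes lower and chromosome 8 has 29.7% higher.

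Several of the genes above lie in runs of neighbouring genes that differed the same way. Genes low in both lines were left out of the order, so a window of 25 skips such genes that lie between its members. These windows had median differences from -0.63 to 0.45 between their 5th and 95th percentiles, and neighbouring windows overlap. The lowest window ran from GPSM3 to HSD17B8 on chromosome 6, through the MHC class II region, with 16 of 25 genes lower, 1 higher and a median of -1.49. It holds NOTCH4 and HLA-DRA, and also TAP1, PSMB8 and PSMB9, so the lower receptor and these lower antigen presentation genes share a stretch of the chromosome. BRD2, inside the same window, was not called (0.14), and RXRB was higher (1.08). On the X chromosome, ARMCX3 to TEX13A had 17 of 25 genes lower and none higher (median -1.43), including TCEAL4 and BEX3, small proteins of the BEX and TCEAL family, at 1.55 and 1.33 in Rec-1, against 6.01 and 5.78 in SP-49 for TCEAL4 and 3.64 and 3.25 in Rec-1, against 6.91 and 7.23 in SP-49 for BEX3.

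The runs of this paragraph are windows of 15 genes, which had medians from -0.68 to 0.48 between their 5th and 95th percentiles. Window size mattered: with 25 genes the chromosome 16 run (CES1 to CCL17) had 19 genes lower and a median of -1.13. The 6 lowest separate windows of 25 included stretches of chromosome 2 (medians -1.13 and -1.12), but none of chromosome 13 or 15. On chromosome 16, the 15 genes from MT2A to CCL22 that were not low in both lines were all lower, with a median of -2.09. Between them lie 3 genes low in both lines, none of them called, among them the metallothionein MT1M (1.26 in Rec-1 and 1.26 in SP-49). The lower genes include 6 metallothioneins, which bind zinc and copper: MT2A (-2.48), MT1E (-3.34), MT1F (-1.54), MT1G (-1.58), MT1H (-2.28) and MT1X (-2.35). The metallothioneins MT4 and MT3, which precede MT2A in the order and lie outside this run, were not called (0.22 and 0.20). Metallothionein genes are near-identical, so their probe sets may share signal. The same stretch holds NLRC5, CCL22 and HERPUD1, a gene of the unfolded protein response (-2.09). On chromosome 13, 13 of 15 genes from TPT1 to RCBTB2 were lower and none higher (median -1.74), with 9 genes low in both lines left out, 1 of them called. RB1 lies there beside ITM2B (-3.28) and RCBTB2 (4.44 and 4.56 in Rec-1, against 8.26 and 8.19 in SP-49). On chromosome 15, 11 of 15 genes from ST20 to MEX3B were lower and none higher (median -1.74, 3 genes low in both left out), BCL2A1 and IL16 among them.

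The highest window of 25 ran from CWF19L2 to CRYAB on chromosome 11, with 15 genes higher, 2 lower and a median of 1.40. POU2AF1 lies in it, with ACAT1, a mitochondrial thiolase (2.70), and the ubiquitin ligase scaffold CUL5 (2.44), and PTS, of tetrahydrobiopterin synthesis, follows it (8.18 and 8.14 in Rec-1, against 4.77 and 4.94 in SP-49). ATM, in the same window, differed by 0.56. On chromosome 8, 21 of 25 genes from LACTB2 to ZFAND1 were higher and 1 lower (median 0.86). HEY1 and IL7 lie in that window, as do LACTB2 (7.72 and 7.76 in Rec-1, against 3.81 and 4.01 in SP-49) and EYA1 (4.56 and 4.72 in Rec-1, against 1.5 and 1.41 in SP-49). On chromosome 6, RARS2 to USP45 had 15 of 25 genes higher and 1 lower (median 1.16). Among separate windows of 25 that one had rank 2 and the chromosome 8 window rank 6. Windows on chromosomes 2, 7 and 1 lay between them, with medians of 1.07, 0.95 and 0.94. Gene order is that of the GRCh38.p14 gene table, and what these runs share beyond position was not tested.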

How the data were processed

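RNA of Rec-1, SP-49 and Mino cells was hybridised to 12 Affymetrix arrays, 2 per line and treatment. The deposited values are log2 probe-set signals in a value table that the authors normalized. RMA and limma are named per the submitters' processing notes, with neither versions nor settings stated in these sources. Scanner files were not used here, so background signal per probe and scan order could not be tested.

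Of 54675 probe sets, 41097 named 1 gene in the platform annotation, 1801 several and 11777 none, and symbols were updated through RefSeq's gene table. For each of the 19775 genes, the brightest probe set by its average across the 12 arrays was used, and 10523 genes had more than 1. Group means of the 6 groups were fitted with limma 3.58.1 in R 4.3.3 (lmFit, eBayes), leaving 6 residual degrees of freedom. The contrast was Rec-1 mock minus SP-49 mock, called at an adjusted p under 0.05 after Benjamini-Hochberg. The fit was tested on simulated data with known changes. It recovered 10.3% of changes of 0.5 log2 units, 97% of changes of 1 and 100% of changes of 2. Every simulated gene had the same spread and few genes changed, unlike in the data, so these shares are a rough guide.

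A gene was low in a line when both mock arrays lay under the median of all probe sets in the 4 arrays. The naming rule took, among called genes whose groups did not overlap, the 10 with the highest signal among those low in 1 line, for each line, and the 8 largest differences in each direction among genes low in neither. It also took a set of Notch and lymphoma genes whatever their p, up to 4 members per list by adjusted p, and up to 2 by level. Fold changes against a line in which both arrays were low were not ranked. Y-linked genes and XIST were left out.

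The 39 gene lists held 1189 genes, of which 1083 were measured. Members and lists were chosen with earlier results of these data known. Genes named outside the rule, the runs, the motifs and the promoters shown were chosen after their values were seen. Promoters are RefSeq's 250 bases before the start, on GRCh38.p14, searched on both strands. The alternatives changed normalization, centring, the probe set per gene, dim-gene filters, the prior, the arrays that estimate the spread, array weights, the minimum fold, the replicate block, the windows and the low-end threshold, and left out each array in turn.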

Additional observations from a re-analysis of the deposited data

How the results depend on the processing

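The count of called genes was 5714 and stayed between 4337 and 6760 under the settings that kept 1 probe set per gene and no minimum fold. Quantile normalization applied again gave 5880 (2880 higher, 3000 lower), and centring each array on its median gave 5611 (2389 higher, 3222 lower). Testing every probe set on its own called 9440 of 41097 (4344 higher, 5096 lower), and asking for at least 4-fold left 722 (184 higher, 538 lower), both by construction. Leaving out 1 array gave 4337 to 6175 calls, 1887 to 2822 higher and 2417 to 3353 lower; the lowest count of calls came without the second SP-49 mock array, where the lone array is assumed to vary like the other groups. The genes low in Rec-1 only and called numbered 304, and 191 or 462 with the threshold at the 40th or 60th percentile of all probe sets. With the replicate block 5777 genes were called (2612 higher, 3165 lower). Deviations of same-numbered mock arrays correlated at -0.0124, which cannot show whether these arrays were handled together. Their titles share only a number, and the main fit assumed no pairing. Averaging the probe sets of a gene turned the sign of 3 named genes called in either fit, as their probe sets disagree: NOTCH1 became 0.19 (adjusted p = 0.278), NOTCH2 0.35 (adjusted p = 0.0497) and COL1A1 -0.53. It also turned genes called in neither fit, among them CCND1 to 0.15 (adjusted p = 0.486) and CD5 to 0.02 (adjusted p = 0.941). Of 507 list members called, 353 kept the call in every setting and 4 changed sign in at least 1. Of 215 named and called genes, 30 lost the call in at least 1 alternative, and 43 of the 143 with other probe sets had none called the same way. With 2 arrays a line, the number of arrays limits the precision of every value, and the median SE was 0.164.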

Other observations

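Metabolic genes differed in both directions. Of 33 glycolysis and hypoxia genes 11 were higher and 8 lower in Rec-1, with hexokinase HK1 at 7.79 and 7.67 in Rec-1, against 6.02 and 6.0 in SP-49, GPI at 8.57 and 8.64 in Rec-1, against 7.58 and 7.43 in SP-49 and the pyruvate kinase PKM higher by 1.17, and with ADM, adrenomedullin, lower (4.53 and 4.75 in Rec-1, against 8.40 and 8.12 in SP-49). GAPDH, often used as a reference gene, was lower on all 6 of its probe sets (-0.63 on the one used). In cholesterol and fatty acid synthesis 6 of 26 were higher and 5 lower, with fatty acid synthase FASN (2.04), SC5D (1.57) and DHCR7 (1.54) among the higher. In one-carbon and amino-acid metabolism 9 of 34 were higher and 9 lower. The transaminases GOT1 and BCAT1, the mitochondrial serine enzyme SHMT2 and the glutamine carrier SLC1A5 were higher (2.27, 1.63, 1.53 and 1.82), and KYNU, of tryptophan breakdown, and the leucine carrier SLC7A5 lower (-2.22 and -1.73).

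Of 35 chromatin regulators 4 were higher and 14 lower. DNMT3A, a DNA methyltransferase, read 2.90 and 3.19 in Rec-1, against 7.40 and 7.31 in SP-49, and its other probe sets were also called lower. HDAC9 and SMARCA2 were lower (-2.16 and -2.02) and HDAC1 and HMGA1 higher (0.98 and 0.91). Of 35 homeobox genes 4 were higher and 5 lower: HOXC6 (2.47), HOXC4 (1.87) and HHEX (1.94) stood against LHX2 (-2.55). None of 36 WNT genes was higher and 8 were lower, including the receptor FZD2 (3.14 and 2.96 in Rec-1, against 5.64 and 5.71 in SP-49) and the coreceptor LRP6 (-2.11). The shares called were 25.7% of the homeobox and 22.2% of the WNT genes, against 28.9% of all genes (13.1% higher, 15.8% lower). In guidance families 4 of 35 were higher and 9 lower, with the ligand SLIT2 at 5.82 and 5.74 in Rec-1, against 1.88 and 2.04 in SP-49 and the plexins PLXNB1, PLXNB2 and PLXND1 lower (-2.12, -2.18 and -1.65), although the other probe set of PLXNB1 and of PLXNB2 differed in sign. Of 34 innate sensing genes 7 were higher and 6 lower, with LY96, the partner of TLR4, higher (1.73), TLR8 at least 2.05-fold higher and the endosomal receptor TLR7 lower (4.0 and 4.15 in Rec-1, against 6.92 and 7.10 in SP-49). Of 36 cancer-testis genes 29 were low in both lines, and PRAME was lower in Rec-1 (2.88 and 3.01 in Rec-1, against 4.77 and 5.21 in SP-49).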
